A study of Homo sapiens with 4 samples.

Results

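FOS, FOSB, FOSL1, FOSL2, JUN, JUNB, JUND and ATF3 encode the proteins from which the transcription factor AP-1 is built. Open chromatin over and around these 8 genes was examined in transplanted Panc1 cells, from single-cell counts summed over nuclei. Panc1 is a line of human pancreatic ductal adenocarcinoma, and the cells came from mice that carried it as a transplant. The members were the peaks that overlapped 1 of the 8 genes or the 50 kb on either side of it, on build GRCh38. They formed 169 merged regions of 128195 in the whole series, and 90 of these had a peak in all 4 libraries, out of 50771 such consensus regions in all. The 90 comprised 7 start-site regions of the members, 12 regions at the start of another gene and 71 distal regions. Distal means that no start listed in the RefSeq promoter table used here was assigned to the region. That table lacks some genes, so a distal region may still hold a start that is not listed.

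Transplanted mice of an Inflachromene and a Carrier group were compared. The Inflachromene group received inflachromene, a compound that binds HMGB1 and HMGB2, proteins of the high mobility group that bend DNA, and comprised mice 11 and 35. The Carrier group received carrier alone and comprised mice 12 and 31. Each library came from 1 mouse, the tissue is labelled pancreas, and all 4 libraries carry the same cell line. Dose, duration, age and host strain are not given in the labels used here. In single-cell ATAC-seq a transposase cuts open chromatin, and the deposited matrices hold counts per peak and barcode.

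AP-1 is a dimer of basic leucine zipper proteins. JUN proteins can pair with themselves or with a FOS protein, whereas FOS proteins need a JUN partner, and ATF3 pairs with JUN proteins and with related factors. The dimers bind the AP-1 site and, for some pairs, the cAMP response element. FOS, FOSB, JUN and JUNB are immediate early genes, which are switched on within minutes of growth factor or stress signals through MAP kinases.

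The DNA before 4 of the start sites is shown because the levels and comparisons that follow turn on these regions. Each sequence is the 250 bases before the start that RefSeq gives, read 5′ to 3′ along the gene, from build GRCh38.p14. The FOS stretch is chr14:75278578-75278827 on the plus strand and the FOSB stretch is chr19:45467746-45467995 on the plus strand. The JUN stretch is chr1:58784048-58784297 on the minus strand and the JUND stretch is chr19:18281623-18281872 on the minus strand. Capitals mark matches to TGACG, TGACGTCA, TGACATCA or TATAAA on either strand.
FOS: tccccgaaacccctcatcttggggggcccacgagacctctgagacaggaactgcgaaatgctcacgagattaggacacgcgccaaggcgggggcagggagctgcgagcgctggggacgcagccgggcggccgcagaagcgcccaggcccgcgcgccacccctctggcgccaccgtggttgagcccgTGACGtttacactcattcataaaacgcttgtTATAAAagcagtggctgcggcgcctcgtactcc
FOSB: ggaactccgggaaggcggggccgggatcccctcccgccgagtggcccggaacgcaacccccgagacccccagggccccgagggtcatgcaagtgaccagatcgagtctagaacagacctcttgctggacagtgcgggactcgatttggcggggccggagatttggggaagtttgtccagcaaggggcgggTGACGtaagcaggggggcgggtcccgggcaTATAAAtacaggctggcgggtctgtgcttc
JUN: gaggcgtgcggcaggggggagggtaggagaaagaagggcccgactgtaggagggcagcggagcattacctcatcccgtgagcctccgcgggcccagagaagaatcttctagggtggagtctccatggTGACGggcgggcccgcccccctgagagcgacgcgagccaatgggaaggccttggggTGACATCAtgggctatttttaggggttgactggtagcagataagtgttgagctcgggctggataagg
JUND: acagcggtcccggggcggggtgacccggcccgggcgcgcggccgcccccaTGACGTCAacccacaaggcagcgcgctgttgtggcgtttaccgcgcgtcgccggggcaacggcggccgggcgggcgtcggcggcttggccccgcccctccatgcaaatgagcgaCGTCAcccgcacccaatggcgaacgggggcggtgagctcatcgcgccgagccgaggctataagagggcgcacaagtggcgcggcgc

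FOS and FOSB shared an arrangement in these windows. TGACG, the core of the cAMP response element, began 64 bases before the FOS start and 60 bases before the FOSB start. TATAAA, the TATA box, began 33 bases before the FOS start and 30 bases before the FOSB start. JUNB likewise had TATAAA, 31 bases before its start. TATAAA or its reverse complement TTTATA was present in the windows of 3 of 7 members and in 9.25% of 15811 protein-coding promoters of the same length. JUN held TGACATCA, a variant element that JUN itself is known to bind with ATF2, 67 bases before its start. ATF3 held TGACATCA 123 bases before its RefSeq start, which had no consensus region within 500 bp. TGACATCA or TGATGTCA occurred in 1.98% of promoters. JUND alone of the 7 held the full element TGACGTCA, a sequence that is its own reverse complement and contains TGACG on both strands. TGACGTCA occurred in 2.32% of promoters. TGACG or CGTCA was found in 6 of 7 members and in 25.6% of promoters. The AP-1 site TGACTCA or TGAGTCA was in none of the 7 windows and in 3.18% of promoters. The CArG box, the site of serum response factor, was in none of the 7 windows and in 1.14% of promoters. GGGCGG or CCGCCC was in 6 of 7 windows and in 56% of promoters, and CCAAT or ATTGG in 4 of 7 windows and in 34.4% of promoters. These are matches of letters in this window, not sites shown to be bound. FOSL1 had no entry in the promoter table, so the outer end of the gene at the higher coordinate was used as its start, from general knowledge of its strand.

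The libraries held between 27088391 and 39947056 counts, in 2039 to 5186 barcodes, of which 939 to 2070 were deep barcodes with at least 2000 counts. Deep barcodes held a median of 34064 counts in Carrier 31, against 16316.5 in Carrier 12. In Inflachromene 11 and 35 the median was 18278 and 20122.5 counts. Carrier 12 and Inflachromene 11 shared 1209 barcodes, and other pairs of libraries shared between 25 and 357. Among deep barcodes no pair shared more than 10. Of the preset markers, regions with a peak in all 4 libraries lay at an end of KRT8, KRT19, VIM, SOX9 and CDH2, 5 of 7 Panc1 carcinoma markers, but not of KRT18 or KRT7. They lay at 3 of 6 fibroblast markers (COL1A1, COL1A2 and PDGFRB, not PDGFRA, DCN or LUM) and at 4 of 6 immune markers (CD3E, CD14, SPI1 and CSF1R, with PTPRC among those without). They lay at 0 of 4 endothelial and 0 of 4 acinar and endocrine markers. Scaled to the depth of each library (CPM, explained with the levels), the regions at fibroblast markers summed to 113 and 102 CPM in Inflachromene 11 and 35, against 112 and 121 CPM in Carrier 12 and 31. Those at immune markers summed to 65.5 and 67.5 CPM in Inflachromene 11 and 35, against 66.6 and 67.1 CPM in Carrier 12 and 31. Counts summed over a library do not by themselves say whether fewer nuclei were open at a region or each nucleus was less open, and the number of barcodes with a count was therefore tested beside them. Nothing in the labels says more of how the mice were handled, so p-values for inflachromene measure the spread between these libraries.

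All 8 genes lay in open chromatin, and 7 of them were open at the start used here. Of the 169 merged regions, 117 had a peak in Inflachromene 11, 136 in Inflachromene 35, 131 in Carrier 12 and 119 in Carrier 31. A peak in all 4 libraries was found for 53.3% of the members' regions, against 39.6% of regions in the whole series. FOSL1 had the highest share of regions open in all 4 libraries, 16 of 23, and FOSL2 the lowest, 5 of 14. FOSB had the most regions, 30. Peaks were called in each library separately, so absence of a peak is not a count of 0. Among the 79 regions that lacked a peak in at least 1 library, 9 held more than 500 counts on average where they had a peak, and the lowest count in a consensus region was 108.

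**Figure D1:**
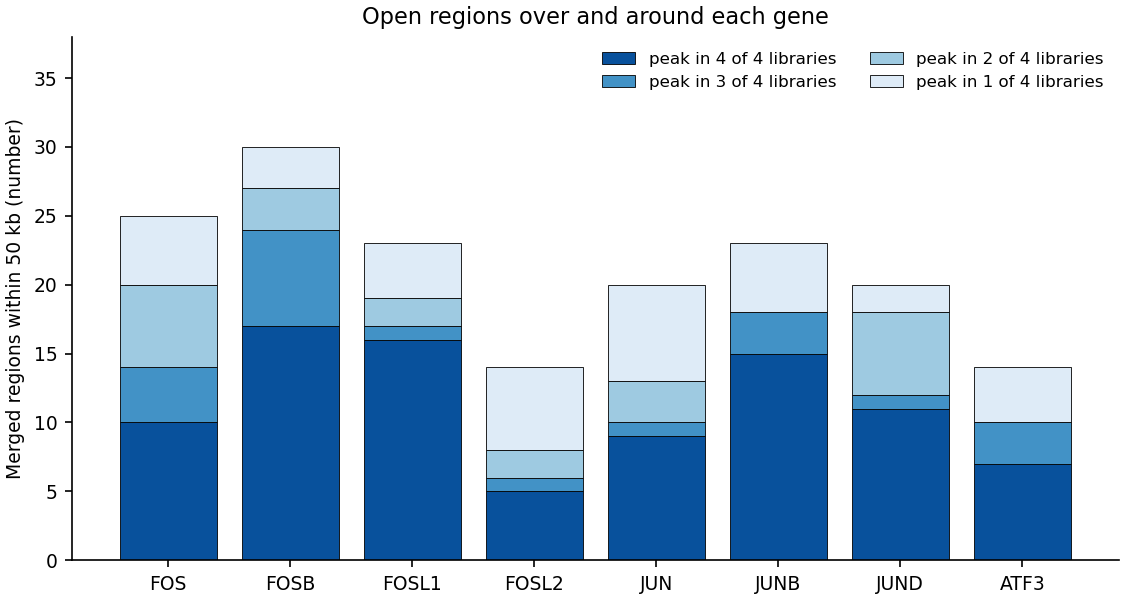
Number of merged regions over or within 50 kb of each gene, divided by the number of libraries (1 to 4) in which they had a peak. FOSB had 30 regions and FOSL1 had 16 of 23 in all 4 libraries, whereas FOSL2 had 5 of 14.

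Peaks in both libraries of a group and neither of the other group were few. Peaks in both Inflachromene and no Carrier library were found at 2 of 169 member regions, 1.18%, against 3.64% of the whole series. The pair was a region centred 2.7 kb upstream of FOSB and a region centred 1.5 kb upstream of JUN. Peaks in both Carrier and no Inflachromene library were found at 5 regions, 2.96%, against 1.60% of the whole series. These 5 lay at FOS (2), JUND (2) and JUN (1). No test was made of these counts, which move with the depth of peak calling.

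Per length, JUN had the most open start of the family, followed by FOSL2. Levels are given here per length, as CPM per kb, where CPM is the count scaled to a common library total over consensus regions, so that genes can be set side by side. JUN encodes c-Jun, the partner common to most AP-1 dimers. The JUN start measured 151 and 122 CPM per kb in Inflachromene 11 and 35, against 114 and 140 CPM per kb in Carrier 12 and 31. The JUN mean of 132 ± 16.8 CPM per kb (SD, n = 4) exceeded 98.6% of the 8847 start-site regions of protein-coding genes, whose median was 42.3 CPM per kb. FOSL2 encodes Fra-2, a FOS relative without a strong activation domain. The FOSL2 start measured 97.7 and 88.5 CPM per kb in Inflachromene 11 and 35, against 72.1 and 88.1 CPM per kb in Carrier 12 and 31. By CPM per kb JUN ranked highest and FOSL2 next in each of the 4 libraries. The place of FOSL2 turned on the width of the regions, 1527 bp at the JUND start and 910 bp at the FOSL2 start. In CPM the JUND start exceeded the FOSL2 start in each library. JUND measured 99.8 and 83.2 CPM in Inflachromene 11 and 35, against 88.9 and 80.6 CPM for FOSL2. In Carrier 12 and 31 JUND measured 70.0 and 88.9 CPM, against 65.6 and 80.1 CPM for FOSL2.

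The other 5 starts lay close together. FOS and FOSB, the members known for the sharpest induction by growth factors, both averaged 68.8 CPM per kb, with SDs of 5.04 and 4.60 in the same order (n = 4). JUNB, which often restrains c-Jun, averaged 60.2 ± 5.47 CPM per kb, FOSL1, which encodes Fra-1, 58.8 ± 3.51 CPM per kb, and JUND, the JUN protein of resting cells, 56.0 ± 8.14 CPM per kb (SD, n = 4 each). The gaps between neighbours among these 5 were smaller than their spread, except for that between FOSB and JUNB, which exceeded either SD. Even JUND, the lowest per kb, exceeded 67.5% of start-site regions. The region at the JUNB start also covers the start of HOOK2, so its counts cannot be assigned to either gene.

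**Figure D2:**
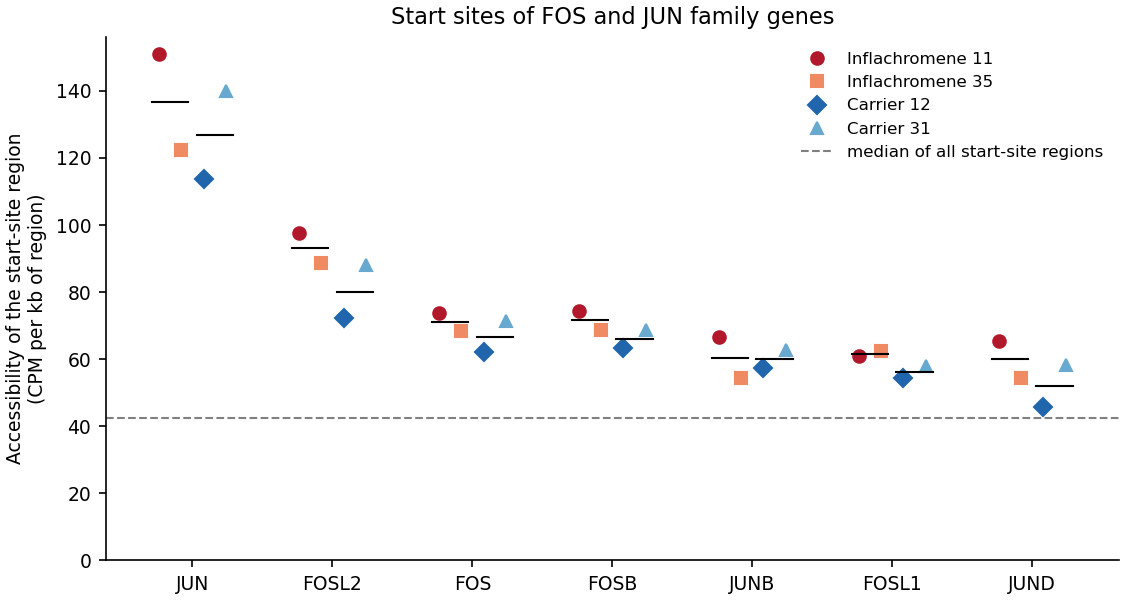
Accessibility of the start-site region of each gene in CPM per kb of region, with 1 point per library and short lines at the mean of each group. JUN, at 132 CPM per kb, and FOSL2, at 86.6 CPM per kb, stand above FOS, FOSB, JUNB, FOSL1 and JUND, which lie between 56.0 and 68.8 CPM per kb.

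ATF3, a stress-induced factor known to have a further promoter downstream, differed from the rest. No consensus region lay within 500 bp of its RefSeq start. The most open of its 7 consensus regions lay inside the gene, 43.2 kb downstream of that start, at chr1:212608141-212609066, and averaged 51.7 CPM per kb. It measured 46.1 and 46.3 CPM in Inflachromene 11 and 35, against 44.2 and 54.8 CPM in Carrier 12 and 31, so the groups overlapped. A single start per gene was used, so whether this region is the further promoter was not tested.

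Distal regions were less open than starts for most members. The 71 distal regions had a median of 24.0 CPM per kb and ranged from 4.40 to 102.5, and the 7 starts had a median of 68.8 CPM per kb. At FOSL2, JUN, JUNB and JUND no other region exceeded the gene's own start. FOSB had 1 of 16 other regions above its start, and FOS 2 of 9. The highest at FOS, 19.7 kb upstream at chr14:75258677-75259629, averaged 102.5 CPM per kb. It measured 106 and 95.2 CPM in Inflachromene 11 and 35, against 90.7 and 98.6 CPM in Carrier 12 and 31. FOSL1 lies in a gene-dense stretch, where 6 of its 15 other regions are starts of neighbours such as CFL1, MUS81 and DRAP1, and 7 of the 15 were more open than the FOSL1 start. The most open, 41.0 kb downstream, averaged 90.3 CPM per kb.

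The effect of inflachromene on the family was then examined, from one edgeR quasi-likelihood fit over all 50771 consensus regions with Benjamini-Hochberg adjustment. No start site of the family passed the test, and all 7 had log2 fold changes above 0, from 0.011 to 0.22, whereas with library size alone for scaling JUNB was at -0.028. No region of the genome passed at an adjusted p of 0.05 either, so the share called was 0% and the smallest adjusted p was 1.00 after rounding. At an unadjusted p under 0.05 there were 2274 regions, 4.48% of all, of which 3.04% were higher and 1.44% lower in Inflachromene. DESeq2 called 28 of the 42896 regions to which it gave an adjusted p, 0.0653%, none of them a member's. With deep barcodes alone, of which the libraries share at most 10, edgeR again called 0.

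The FOS start measured 74.3 and 69.0 CPM in Inflachromene 11 and 35, against 62.6 and 72.0 CPM in Carrier 12 and 31. The FOSB start measured 69.6 and 64.2 CPM in Inflachromene 11 and 35, against 59.1 and 64.3 CPM in Carrier 12 and 31. At both genes Carrier 12 was lowest, Inflachromene 11 highest, and the groups overlapped. The log2 fold change was 0.090 (SE 0.15) for FOS and 0.12 (SE 0.15) for FOSB. The FOSL1 start measured 69.0 and 70.7 CPM in Inflachromene 11 and 35, against 61.7 and 65.6 CPM in Carrier 12 and 31. The FOSL2 start measured 88.9 and 80.6 CPM in Inflachromene 11 and 35, against 65.6 and 80.1 CPM in Carrier 12 and 31. The groups did not overlap at these 2 starts, FOSL2 by a narrow margin. The log2 fold change was 0.13 (SE 0.14) for FOSL1 and 0.22 (SE 0.16) for FOSL2.

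Among the JUN genes the groups overlapped at every start. The JUN start measured 138 and 112 CPM in Inflachromene 11 and 35, against 104 and 128 CPM in Carrier 12 and 31, a log2 fold change of 0.11 (SE 0.18). The JUNB start measured 54.7 and 44.6 CPM in Inflachromene 11 and 35, against 47.1 and 51.4 CPM in Carrier 12 and 31, a log2 fold change of 0.011 (SE 0.16). The JUND start measured 99.8 and 83.2 CPM in Inflachromene 11 and 35, against 70.0 and 88.9 CPM in Carrier 12 and 31, a log2 fold change of 0.20 (SE 0.17). Each start of the JUN genes was highest in Inflachromene 11.

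A log2 fold change above 0 at 7 of 7 starts compares with 67.1% of all start-site regions. ATF3, without a start-site region, is not among the 7. Its most open region, 43.2 kb downstream of its RefSeq start, was at -0.099 (SE 0.16). The median was 0.12 for the 7 and 0.047 for all starts. Counted as barcodes with a count, the 7 starts had a median of 0.22, and none passed. The part of the unequal depth per barcode in that value was not tested. Groups that did not overlap, 2 of 7 here, were found at 20.4% of all starts. The 95% intervals of the 7 log2 fold changes lay between -0.34 and 0.59. Above-0 values were left at 4 of 7 starts without Carrier 12 and at 5 of 7 without Inflachromene 11. Carrier 12 was lowest of the 4 libraries at 6 of the 7 starts, the exception being JUNB.

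Copy number is unequal in carcinoma cells, and counts of the surrounding 10 Mb were therefore set beside each gene. The windows differed between Inflachromene and Carrier by a log2 ratio of 0.19 around FOSL2 and 0.14 around FOSL1, close to the values at these starts. Windows of the other 6 genes differed by -0.064 to 0.060. With the window as an offset, 5 of 7 starts stayed above 0, FOSL1 was at -0.0066 and FOSL2 at 0.034. The part of copy number in these differences was not tested.

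No other region of the family passed the test for inflachromene, and 3 of 83 had an unadjusted p under 0.05, or 3.61% against 4.48% of all regions. A pair of the 3 lay at JUN. The region 4.0 kb downstream of the JUN start lies 287 bp beyond the 3′ end of the gene, at chr1:58779557-58780504. It measured 19.0 and 24.4 CPM in Inflachromene 11 and 35, against 35.6 and 32.5 CPM in Carrier 12 and 31. The groups did not overlap, and both Inflachromene libraries were lower. The log2 fold change was -0.65 (SE 0.18, unadjusted p = 0.00503, edgeR adjusted p = 1.00). The region 28.4 kb downstream of the JUN start lies at chr1:58755130-58756093. It measured 15.4 and 27.5 CPM in Inflachromene 11 and 35, against 12.9 and 13.0 CPM in Carrier 12 and 31. The groups did not overlap, but Inflachromene 11 lay much closer to the Carrier libraries than to Inflachromene 35. The log2 fold change was 0.73 (SE 0.26, unadjusted p = 0.0196, edgeR adjusted p = 1.00). The remaining region lies inside FOSL2, 3.9 kb downstream of its start, at chr2:28396318-28397219. It measured 21.5 and 21.7 CPM in Inflachromene 11 and 35, against 14.0 and 17.7 CPM in Carrier 12 and 31. Both Inflachromene libraries were higher, with a log2 fold change of 0.45 (SE 0.19, unadjusted p = 0.0426, edgeR adjusted p = 1.00).

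**Figure D3:**
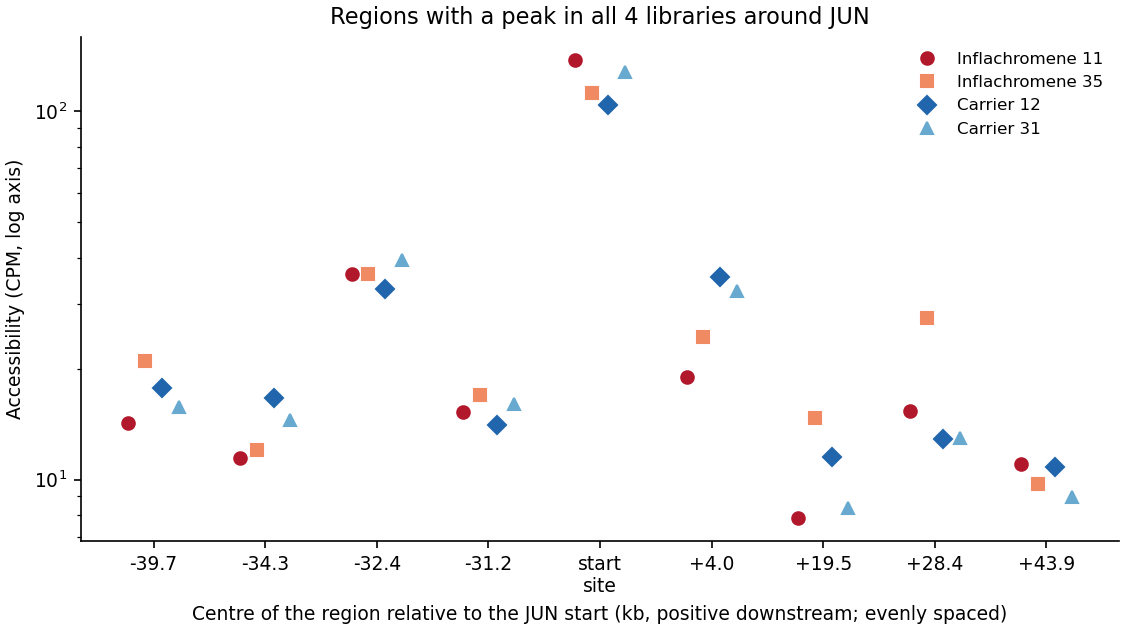
Accessibility in CPM on a log axis of the 9 regions around JUN that had a peak in all 4 libraries, 1 point per library, ordered by distance from the JUN start and evenly spaced. The start site stands highest at 104 to 138 CPM, and the groups separate at 4.0 kb, where Inflachromene is lower at 19.0 and 24.4 CPM.

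These calls depended on which libraries were used. Without Inflachromene 35, the JUN region at 4.0 kb passed the test at a log2 fold change of -0.85 (edgeR adjusted p = 0.0125), among 299 regions called, 0.589% of all. Without Inflachromene 11, the JUN region at 28.4 kb passed at 1.09 (edgeR adjusted p = 1.39e-05), among 3180 regions called, 6.26% of all. The region 33.5 kb upstream of FOSL2 then passed at 0.98 (edgeR adjusted p = 0.00205), and so did that 2.8 kb upstream of FOSL1 at 0.58 (edgeR adjusted p = 0.0387). Each of these fits has a single Inflachromene library, which is assumed to vary as the Carrier libraries do. The FOSL2 region measured 7.998 and 14.01 CPM in Inflachromene 11 and 35, against 7.84 and 6.34 CPM in Carrier 12 and 31. The FOSL1 region measured 32.9 and 44.3 CPM in Inflachromene 11 and 35, against 28.8 and 30.4 CPM in Carrier 12 and 31. At both of them Inflachromene 35 stood above the other 3 libraries, as at the JUN region 28.4 kb downstream. Without Carrier 31 the fit called 5 regions, 0.00985% of all, and without Carrier 12 it called 0, none of them at a member.

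At the other genes the 2 distal regions with the smallest p were closer to 0. At FOS they lay 1.6 kb upstream, at a log2 fold change of 0.26 (SE 0.15), and 41.2 kb upstream, at 0.29 (SE 0.24). The region 1.6 kb before FOS measured 44.6 and 43.4 CPM in Inflachromene 11 and 35, against 37.3 and 36.2 CPM in Carrier 12 and 31, without overlap. At FOSB they lay 40.2 kb upstream, at -0.29 (SE 0.16), and 12 kb upstream, at 0.21 (SE 0.18). At FOSL1 the region 11.3 kb upstream was at 0.36 (SE 0.18), beside that at 2.8 kb. At JUNB they lay 13.6 kb upstream, at -0.41 (SE 0.21), and 46.9 kb downstream, at 0.32 (SE 0.26). The region 13.6 kb before JUNB measured 17.4 and 15.6 CPM in Inflachromene 11 and 35, against 25.9 and 17.9 CPM in Carrier 12 and 31, where Carrier 12 stood apart. At JUND they lay 18.5 kb downstream, at 0.31 (SE 0.24), and 29.6 kb downstream, at -0.25 (SE 0.20). At ATF3 they lay 46.7 kb upstream, at 0.40 (SE 0.31), and 100.1 kb downstream of the start, at -0.24 (SE 0.16). The most open region of each gene other than its own start was near 0 in this comparison. For JUND this region, 41.6 kb upstream, lay at the start of LSM4, and the others were distal. The values were 0.089 for FOS, 0.028 for FOSL1, 0.088 for FOSL2, 0.097 for JUNB, 0.041 for JUND, -0.0020 for JUN, -0.063 for FOSB and -0.099 for ATF3.

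Over the 90 member regions 58 log2 fold changes were above 0 and 32 below. FOSL2 had 5 of 5 regions and FOSL1 14 of 16 above 0, the pair of genes with the higher windows, and with the window offset these counts were 3 of 5 and 7 of 16. JUNB was the gene with the most regions below 0, 11 of 15, with a median of -0.074. FOS had 7 of 10 above 0, FOSB 10 of 17, JUN 6 of 9, JUND 7 of 11 and ATF3 5 of 7. Groups did not overlap at 27 of the 90 regions, 30.0%, against 31.5% of all regions.

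**Figure D4:**
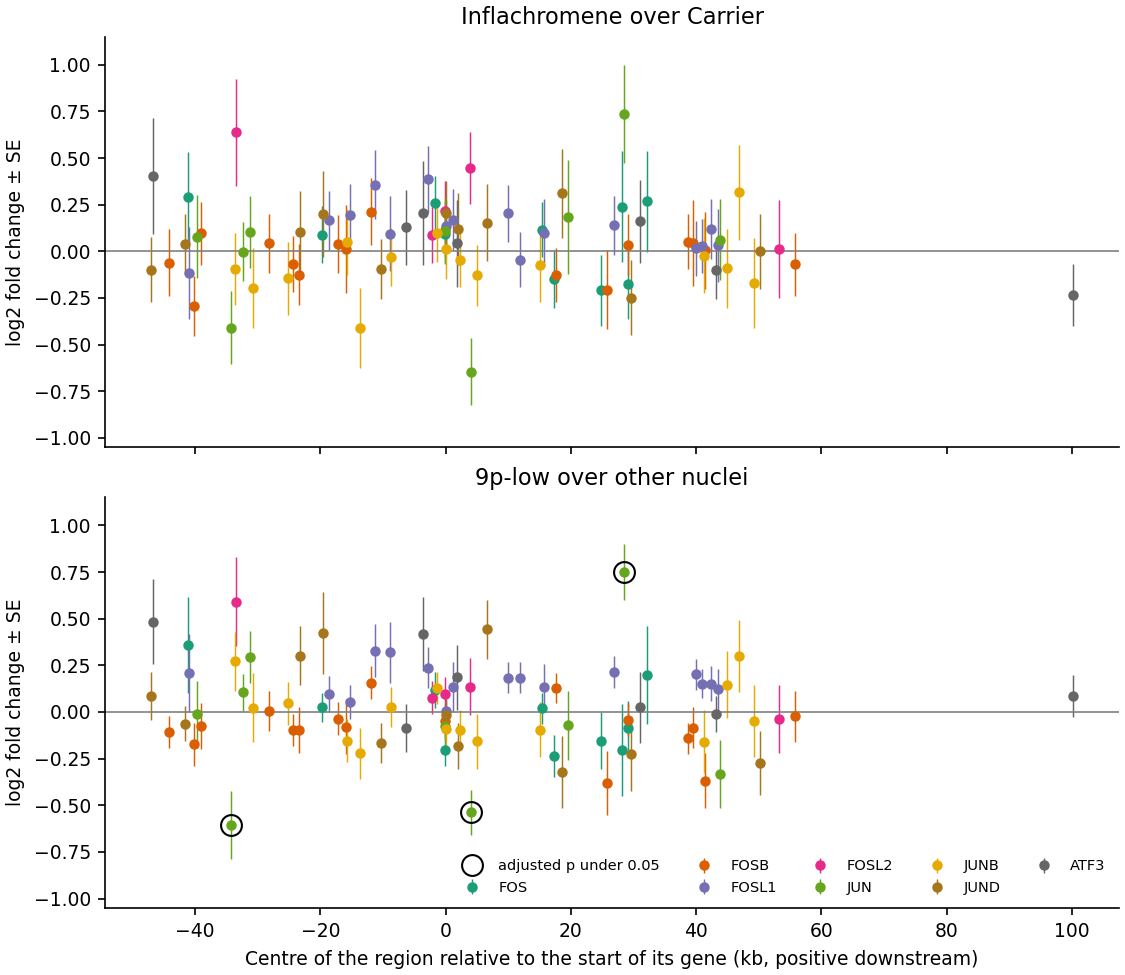
Log2 fold change ± SE of each of the 90 member regions for Inflachromene against Carrier (upper panel) and for 9p-low against other nuclei (lower panel), by distance of the region from the start of its gene in kb. In the upper panel the JUN regions at 4.0 and 28.4 kb lie farthest from 0 on either side at -0.65 and 0.73, and in the lower panel black circles mark the JUN regions that passed the test, at 0.75, -0.54 and -0.60.

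Nuclei were also compared within libraries. Deep barcodes fell into a class with few counts on the short arm of chromosome 9 relative to that of chromosome 3, called 9p-low, and the other nuclei. No member lies in either interval, but the split was known from earlier results of these data. The 9p-low share was 38.7% in Inflachromene 11 (95% exact binomial interval 36.2 to 41.2) and 54.3% in Inflachromene 35 (52.1 to 56.5). It was 11.8% in Carrier 12 (10.4 to 13.3) and 30.5% in Carrier 31 (27.5 to 33.5), so both Inflachromene libraries held more. The intervals cover counting error only, and with 2 libraries a group this difference was not tested. Between 124 and 419 nuclei per library lay near the line between the classes. Counts were summed per library and class and tested with edgeR, with library as a block.

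Regions around JUN differed between the classes of nuclei, and no start site of the family passed. Of 50771 regions 5428, or 10.7%, passed the test, 6.02% higher and 4.67% lower in 9p-low nuclei. None of the 7 member starts passed, against 13.5% of all starts, and 3 of the 83 other member regions did, 3.61% against 10.1% of all regions that are no start. All 3 were JUN regions. Among these 83 regions the share called was thus below that of all regions that are no start, a difference that was not tested. With only 7 starts, none passing cannot be set apart from a share of 13.5%.

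The JUN region at 28.4 kb rose in 9p-low nuclei, with 20.7 and 35.5 CPM in 9p-low nuclei of Inflachromene 11 and 35, against 12.03 and 17.7 CPM in their other nuclei. In Carrier 12 and 31 it measured 15.03 and 19.4 CPM in 9p-low nuclei, against 12.8 and 10.6 CPM in other nuclei. It was higher in 4 of 4 libraries, with a log2 fold change of 0.75 (SE 0.15, edgeR adjusted p = 0.00346). This call held with each library left out in turn, at adjusted p between 0.00111 and 0.0439.

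The JUN region at 4.0 kb fell in 9p-low nuclei. It measured 14.2 and 19.5 CPM in 9p-low nuclei of Inflachromene 11 and 35, against 22.05 and 31.3 CPM in their other nuclei. In Carrier 12 and 31 it measured 24.5 and 29.1 CPM in 9p-low nuclei, against 37.7 and 34.1 CPM in other nuclei. It was lower in 4 of 4 libraries, with a log2 fold change of -0.54 (SE 0.12, edgeR adjusted p = 0.00749). Without Inflachromene 11 the adjusted p was 0.0693, at a log2 fold change of -0.50.

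The JUN region 34.3 kb upstream, at chr1:58817876-58818768, fell as well. It measured 10.3 and 10.8 CPM in 9p-low nuclei of Inflachromene 11 and 35, against 12.5 and 14.1 CPM in their other nuclei. In Carrier 12 and 31 it measured 7.06 and 10.6 CPM in 9p-low nuclei, against 18.1 and 16.3 CPM in other nuclei. It was lower in 4 of 4 libraries, with a log2 fold change of -0.60 (SE 0.18, edgeR adjusted p = 0.0395). This call was lost without any 1 of the 4 libraries, at adjusted p between 0.0516 and 0.141, and with DESeq2, at an adjusted p of 0.0591. The 10 Mb window around JUN differed by 0.081 between the classes, and with it as an offset all 3 regions still passed, at log2 fold changes of 0.69, -0.61 and -0.68 in the order given. Counted as barcodes with a count, all 3 also passed, at 0.63, -0.46 and -0.54 in the same order. Without library as a block, a fit chosen after the data had been seen, none of the 3 passed, at edgeR adjusted p of 0.0613 at 28.4 kb, 0.149 at 4.0 kb and 0.0634 at -34.3 kb. Some settings also called regions of other genes. Barcodes with a count added FOSL2 -33.5 kb, FOSL1 -2.8 kb and JUND +6.6 kb, all higher, where 11.5% of all regions passed. Mixture probabilities under 0.1 or over 0.9 added FOSB +25.7 kb, lower, where 11.1% passed. Without Carrier 12, FOSL2 -33.5 kb passed, higher, where 10.4% passed.

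**Figure D5:**
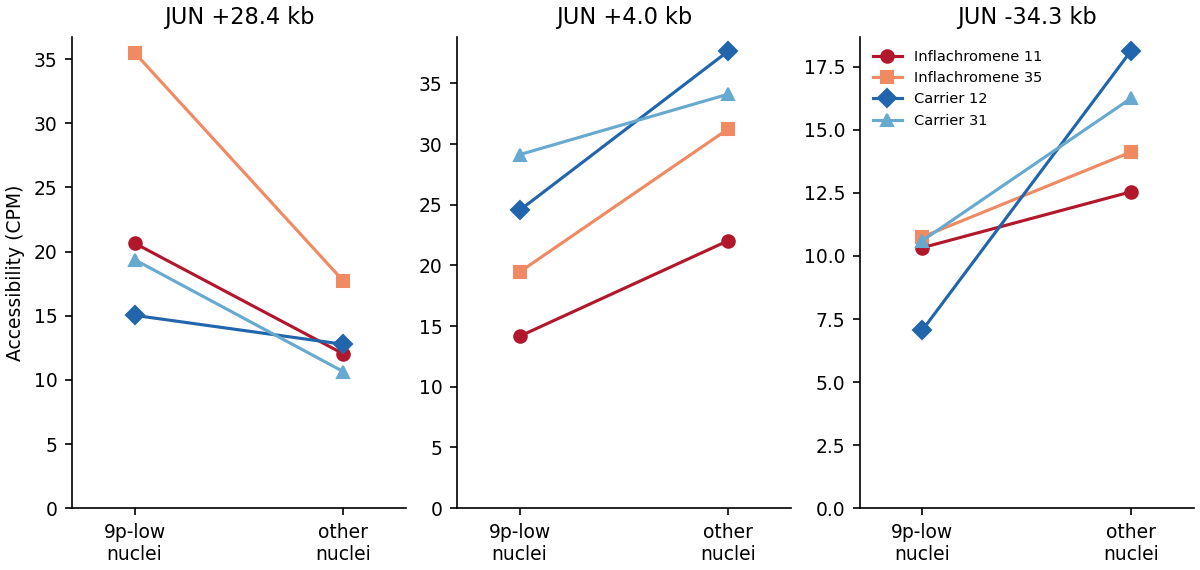
Accessibility in CPM of 3 JUN regions in 9p-low and in other nuclei, with each line joining the classes of 1 library. The lines rise towards 9p-low nuclei at 28.4 kb and fall at 4.0 kb and at -34.3 kb in 4 of 4 libraries.

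The JUN start itself differed little between the classes, at -0.077 (SE 0.079, edgeR adjusted p = 0.622). The FOS start had the smallest p of the 7. It measured 60.9 and 68.0 CPM in 9p-low nuclei of Inflachromene 11 and 35, against 80.4 and 68.5 CPM in their other nuclei. In Carrier 12 and 31 it measured 55.5 and 62.5 CPM in 9p-low nuclei, against 62.6 and 74.0 CPM in other nuclei. It was lower in 4 of 4 libraries and did not pass, at a log2 fold change of -0.21 (SE 0.086, edgeR adjusted p = 0.145).

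At FOSL1 all 16 regions had log2 fold changes above 0 in 9p-low nuclei, and none passed. The 10 Mb window around FOSL1 was itself higher by 0.29, in 4 of 4 libraries, as were those of FOSL2, JUN, JUNB and JUND by 0.069 to 0.18. With the window as an offset 2 of 16 were above 0, and the FOSL1 start passed the test on the other side, at -0.27 (edgeR adjusted p = 0.0394). The FOSL1 start without the offset was at 0.0043 (SE 0.082). The FOSL2 window was higher by 0.18 and the ATF3 window lower, at -0.12. FOSL2 had 4 of 5 regions above 0, with a median of 0.095, but 1 of 5 with the offset, with a median of -0.077. ATF3 had 5 of 7 regions above 0, and 7 of 7 with the offset. Of the 7 member starts 2 were above 0 without the offset, with a median of -0.048, and 0 with it, with a median of -0.15.

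Since the share of 9p-low nuclei differed between the groups, the inflachromene comparison was repeated within each class. The difference at the JUN region 4.0 kb downstream was -0.67 in 9p-low nuclei and -0.43 in other nuclei, both the same way as in whole libraries. At the JUN region 28.4 kb downstream it was 0.71 in 9p-low nuclei and 0.34 in other nuclei. At the FOSL2 region 3.9 kb downstream it was 0.20 in 9p-low nuclei and 0.53 in other nuclei. The region 33.5 kb upstream of FOSL2 was at 1.22 in 9p-low nuclei and -0.090 in other nuclei. No region passed within either class, and the interaction of treatment and class, a test added after the data had been seen, passed at 0 of 50771 regions with edgeR, 3323 having an unadjusted p under 0.05. The smallest adjusted interaction p among the 90 members was 0.669.

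Genes that act with AP-1 were read at their start sites from the same fits. In each list below no gene passed for inflachromene with edgeR, as for the genome. Of 16 other bZIP partners 10 had a start-site region, and 6 were above 0, with a median of 0.044. ATF4, the factor of the amino acid response, was at 0.23 (SE 0.21), MAF at -0.24 (SE 0.18) and NFE2L2, the factor of the oxidative stress response, at 0.17 (SE 0.17). Of 16 upstream kinases and factors 13 had a region and 9 were above 0, with a median of 0.055. MAPK8, which encodes the kinase JNK1 that phosphorylates c-Jun, was at 0.26 (SE 0.15), SRF at 0.083 (SE 0.16) and ELK3 at 0.12 (SE 0.18).

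Of 16 other immediate early genes 10 had a region and 9 were above 0, with a median of 0.042. The orphan nuclear receptor gene NR4A3 was at 0.40 (SE 0.16, unadjusted p = 0.0307), KLF4 at 0.43 (SE 0.17, unadjusted p = 0.0336) and ZFP36 at 0.18 (SE 0.20). Of 20 known AP-1 targets 11 had a region and 8 were above 0, with a median of 0.082. The adhesion receptor gene CD44 was at 0.40 (SE 0.15, unadjusted p = 0.0271), the chemokine gene CXCL8 at 0.46 (SE 0.27) and the integrin gene ITGA2 at 0.36 (SE 0.19). Of 15 housekeeping genes 10 had a region and 8 were above 0, with a median of 0.012. HPRT1 was at 0.074 (SE 0.16), SDHA at 0.10 (SE 0.16) and GUSB at 0.084 (SE 0.17).

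Between the classes of nuclei some of these genes did pass. Those named here were picked after their values were seen. Among bZIP partners 3 of 10 passed. ATF7 rose by 0.29, and its 10 Mb window was higher by 0.31. The window is given beside each gene that follows, and its part was not tested. MAF fell at -0.78 (edgeR adjusted p = 0.00636) in a window at -0.015, and NFE2L2 fell at -0.35 in a window at -0.28. Among upstream factors 2 of 13 passed, with MAPK9 at -0.37 in a window at -0.33 and ELK4 at -0.31 in a window at -0.092. Among immediate early genes 3 of 10 passed. BTG2, an antiproliferative gene, was higher at 0.54 in a window at -0.11. DUSP1, which encodes a phosphatase that switches off MAP kinases, was lower at -0.37 in a window at -0.25, and IER5 was lower at -0.28 in a window at -0.13. Among AP-1 targets 2 of 11 passed, with CD44 at 0.44 in a window at 0.45, and SPHK1 at -0.48 in a window at -0.26. PPIA, at -0.45 in a window at -0.36, was the housekeeping gene that passed, 1 of 10. Against this, 13.5% of all start sites passed.

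The 7 member starts averaged 0.15, -0.022, -0.17 and 0.041 in Inflachromene 11, Inflachromene 35, Carrier 12 and Carrier 31 as log2 CPM centred over the libraries. The genes outside the lists with the closest profile over these 4 libraries were GBF1, RAB39A, DPM1, MOCS3 and TM6SF2, each within 0.0076 in every library. DPM1 and MOCS3 share 1 region. Profiles within 0.05 of the members' mean were found for 544 of 9774 genes.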

How the data were processed

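Accessibility of chromatin in single nuclei was read from 4 libraries, 2 Inflachromene and 2 Carrier, grouped by the treatment label and named by mouse number. The authors deposited, for each library, its peak list and counts per peak and barcode as whole numbers, without normalization. Per the submitters' processing notes the tools were Cell Ranger ARC and Cell Ranger ATAC 2.1.0 on GRCh38, and the settings are not stated. Between 82.4% and 84.9% of matrix entries above 0 were even, so a fragment often gives 2 counts. Peaks of different libraries sharing at least 1 bp (chromosomes 1 to 22, X) were merged, and regions with a peak in all 4 libraries (median width 936 bp) were tested. Where a library lacks a peak its count is missing, and a region with peaks in some libraries only was not tested.

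Barcodes are not replicates, and their counts were summed per library. Differences were tested with edgeR 4.0.16 in R 4.3.3 (TMM factors of 0.975 to 1.03, filterByExpr, which removed none, quasi-likelihood F test, Benjamini-Hochberg over all 50771 regions, threshold 0.05), first checked on simulated data. DESeq2 1.42.0 was the other tool. CPM were computed from library totals in consensus regions scaled by TMM. Start sites came from the RefSeq promoter table of GRCh38.p14 (15811 protein-coding genes, 9835 with a region within 500 bp), and 7 of 8 members matched.

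Nuclei classes came from a Gaussian mixture of 2 components, fitted in scikit-learn 1.9.0, on the log2 ratio of counts on chromosome 9 below 38 Mb to counts on chromosome 3 below 85 Mb, with 1 added to each. Windows of 10 Mb served as an offset for copy number. No doublet caller was run. Other settings were library size alone, no filter, barcodes with a count, deep barcodes, each class of nuclei alone, peaks within 250 bp merged, peaks in at least 3 libraries, distances of 25 kb, nuclei with a mixture probability under 0.1 or over 0.9, no library block, and each library left out. The members, lists, tests and markers were chosen with earlier results of these data known. Named were every member's start, per member the 2 distal regions with the smallest unadjusted p for treatment and the most open region, up to 3 genes per list by smallest p, and the 5 genes of closest profile.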

Additional observations from a re-analysis of the deposited data

Results flagged for a closer look

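Of 32 member regions tested for a library apart from the other 3 in the log2 ratio of 9p-low over other nuclei, 4 had such a library, and chance gives about 1 in 20. The JUN region 4.0 kb downstream was at -0.23 in Carrier 31, nearer to 0 than the other 3 libraries, which lay between -0.68 and -0.62. The FOSL1 start was at 0.17 in Inflachromene 11, the FOSB region 44.2 kb upstream at -0.26 in Inflachromene 35, and the JUNB region 1.4 kb upstream at 0.32 in Carrier 12.

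Peaks outside the tests were seen in both Inflachromene and in neither Carrier library at a region 1.5 kb upstream of JUN, with 722 counts in Inflachromene 11 and 670 in Inflachromene 35 (mean 696). The same held 2.7 kb upstream of FOSB, with a mean of 246 counts. The reverse, peaks in both Carrier and in neither Inflachromene library, was seen at 5 member regions. The highest of them, 4.2 kb downstream of the FOS start, held 990 counts in Carrier 12 and 673 in Carrier 31 (mean 831.5). At all these places the other group had no peak and hence no count, and no fold was computed.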

How the results depend on the processing

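No start of the family passed for inflachromene under any setting run, nor did any gene of the 5 lists. Called regions in the genome numbered 0, but 28 with DESeq2 and 0 to 3180 with a library left out, and distal member regions 0 to 3. Between nuclei classes 5428 passed, against 2378 with the 10 Mb window offset (1 member start), 2547 without the library block (0 member regions; JUN 0.81, -0.55 and -0.63, adjusted p 0.0613, 0.149 and 0.0634 at 28.4, 4.0 and -34.3 kb) and 1792 to 5258 with a library left out. The fits without the library block and within 9p-low nuclei were chosen after seeing the data. Shared regions numbered 55 within 25 kb and 90 within 50 kb. Of the log2 fold changes of single regions, 357 of 403 for inflachromene and 93 of 110 between classes kept their direction and their side of the threshold, and 42 and 8 changed sign.

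No sign change for inflachromene was at a value that passed. With a library left out the FOS start ranged from -0.0011 to 0.19, the JUN start from -0.051 to 0.26, the JUNB start from -0.14 to 0.14, FOSB -44.2 kb from -0.24 to 0.15, FOSL1 +41.0 kb from -0.030 to 0.081, FOSL2 -2.2 kb from -0.022 to 0.18, JUN -32.4 kb from -0.12 to 0.13, JUNB -1.4 kb from -0.013 to 0.22, JUNB +46.9 kb from -0.021 to 0.59, JUND -41.6 kb from -0.075 to 0.14 and ATF3 +43.2 kb from -0.24 to 0.062. With library size alone FOSL1 +41.0 kb was -0.0091 and the JUNB start -0.028. JUN -32.4 kb was 0.012 with DESeq2, 0.032 with barcodes with a count and 0.00071 with deep barcodes. With barcodes with a count ATF3 +43.2 kb was 0.077 and FOSB -44.2 kb 0.062. With deep barcodes the JUNB start was -0.027. In other nuclei FOSB -44.2 kb was 0.011, FOSL1 +41.0 kb -0.0038, FOSL2 -33.5 kb -0.090, the JUNB start -0.069 and JUND -41.6 kb -0.0030. With the window offset the FOSL1 start was -0.0066, FOSL1 +41.0 kb -0.12, FOSL2 -2.2 kb -0.11, the JUNB start -0.039 and JUND -41.6 kb -0.0085. In 9p-low nuclei the FOSB start was -0.042, the JUN start -0.047, FOS -41.2 kb -0.27, FOSL1 +41.0 kb -0.042, JUNB -1.4 kb -0.041, JUNB +46.9 kb -0.0067, JUND +29.6 kb 0.25 and ATF3 +43.2 kb 0.033.

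Between classes the FOSL1 start was -0.0066 with library size alone, -0.028 with barcodes with a count, -0.27 with the offset and -0.047 to 0.032 with a library left out. The FOSL2 start was -0.077 with the offset, and with a library left out the FOSB start ranged from -0.13 to 0.020 and the JUND start from -0.049 to 0.024. No paired analysis of Inflachromene against Carrier was possible because the mouse numbers 11, 35, 12 and 31 are shared by no groups. With 2 libraries a group, SEs of 0.14 to 0.18 at the starts limit what could be detected. The cause of these changes was not tested.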
